A study of Mus musculus with 11 samples.

Results

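Mx1+Ocn- P-SSCs, skeletal stem/progenitor cells sorted from the periosteum, were compared with Osx+ osteolineage cells on Affymetrix mouse 430 arrays. The members are the 4 arrays whose titles name these cells, 2 of P-SSCs and 2 of Osx+ cells, out of 11 arrays of 6 sorted populations in the study. P-SSCs came from mice carrying Mx1-Cre, Rosa-Tomato and Osteocalcin-GFP, after lethal irradiation, a transplant of wild-type marrow and injections of pIpC, an inducer of interferon that switches on the Mx1 promoter and through it Cre. They were negative for CD45 (blood cells), CD31 (endothelium), Ter119 (red cells) and Osteocalcin-GFP (mature osteoblasts), and positive for Tomato, CD105 (Eng) and CD140a (Pdgfra). Osx+ cells were CD45-, CD31- and Ter119- cells carrying GFP driven by Osterix (Sp7), with no sort on CD105 or CD140a named. Their source field names periosteal tissue. Whether the Osx+ mice were irradiated, transplanted or given pIpC, and the age of either group at sorting, are not given in the sources used here. Cell type, mouse line and mouse treatment therefore cannot be told apart in any difference between the groups. Because the Mx1 promoter answers to interferon in several cell types, Tomato marks Cre activity in a cell or its ancestors rather than 1 lineage. Each population was pooled from several male and female mice and its RNA was amplified. The arrays of a population are called biological repeats without a statement that they came from separate mice, so p-values measure only the spread between these samples, which may be technical.

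The periosteum is the fibrous, vascularised sheath of bone, and its inner layer holds progenitors that form cartilage and bone in a fracture callus. Osterix is the transcription factor that commits progenitors to the osteoblast fate, downstream of Runx2, and it is also active in the hypertrophic chondrocytes of the growth plate. Growth plate chondrocytes make a matrix of type II, IX and XI collagen and aggrecan, later of type X collagen, and signal through Indian hedgehog. Kdr is the main signalling receptor for VEGF, best known from endothelium.

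P-SSC array 2 carried little cellular signal. The median of 22 ribosomal protein probe sets was 6.72 log2 units there, against 11.95 on P-SSC array 1 and 12.25 and 12.31 on the Osx+ arrays, and the median of 11 housekeeping genes was 6.58 against 11.53, 11.60 and 11.51. The added bacterial transcript bioB read 13.76 on it and 9.13, 9.77 and 9.19 on the other 3 arrays. Across probe sets the Pearson correlation was 0.456 between the P-SSC arrays, 0.985 between the Osx+ arrays and 0.927 between P-SSC array 1 and Osx+ array 1 (a description, since probe sets share these arrays). P-SSC array 2 also had a higher median over all probe sets and a narrower scale (median 4.94, interquartile range 1.81) than P-SSC array 1 (4.59 and 2.83) and the Osx+ arrays (4.48 and 3.13, 4.49 and 3.33). A low value on P-SSC array 2 stands beside low ribosomal and housekeeping values on the same array. For dim probe sets, a value on it above the Osx+ arrays likewise stands beside its higher median. Most genes below are given per array, and some only by a difference. A difference comes from the fit with all arrays, with P-SSC array 1 alone, or from both. With array 1 alone the group is 1 sample, assumed to vary like the other populations.

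With all arrays, 364 of 45037 probe sets (0.808%) passed in the limma fit (adjusted p under 0.05), 21 higher (0.0466%) and 343 lower (0.762%) in P-SSCs. With P-SSC array 1 alone 487 passed (1.08%), 151 higher (0.335%) and 336 lower (0.746%), a split of 255 and 353 under quantile normalization. The 2 sets shared 277 probe sets, which is 76.1% of the first and 56.9% of the second, and all 277 had the same direction. These counts rest on single arrays. Without Osx+ array 1 or Osx+ array 2 the fit with all P-SSC arrays gave 21 and 18 probe sets, without P-SSC array 1 it gave 21888, and a fit of only the 4 arrays compared gave 0 (8147 passed at an unadjusted p under 0.05 with all populations). Array 2 of the marrow population BM-SSCs also stood apart and enters through the pooled spread, and leaving it out together with P-SSC array 2 gave 11744 (26.1%), 5422 higher (12%) and 6322 lower (14%). At 1 probe set per gene (18193 genes), 196 genes were called (1.08%) with all arrays, 10 higher (0.055%) and 186 lower (1.02%). With array 1 alone 264 were called (1.45%), 80 higher (0.44%) and 184 lower (1.01%), and without array 2 of both populations 5607 (30.8%). At an unadjusted p under 0.05, 7.64% of all genes were higher and 12.7% lower with all arrays, and 4.94% and 7.09% with array 1 alone. The median difference over all genes was 0.15 log2 units with all arrays and 0.05 with array 1 alone. Each gene is given by 1 probe set. Of 56 named genes with another probe set, 2 had one that passed with all arrays where the one given did not, 7 had one that did so with array 1 alone, and in 23 another probe set put P-SSC array 2 on a different side of the Osx+ arrays.

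**Figure D1:**
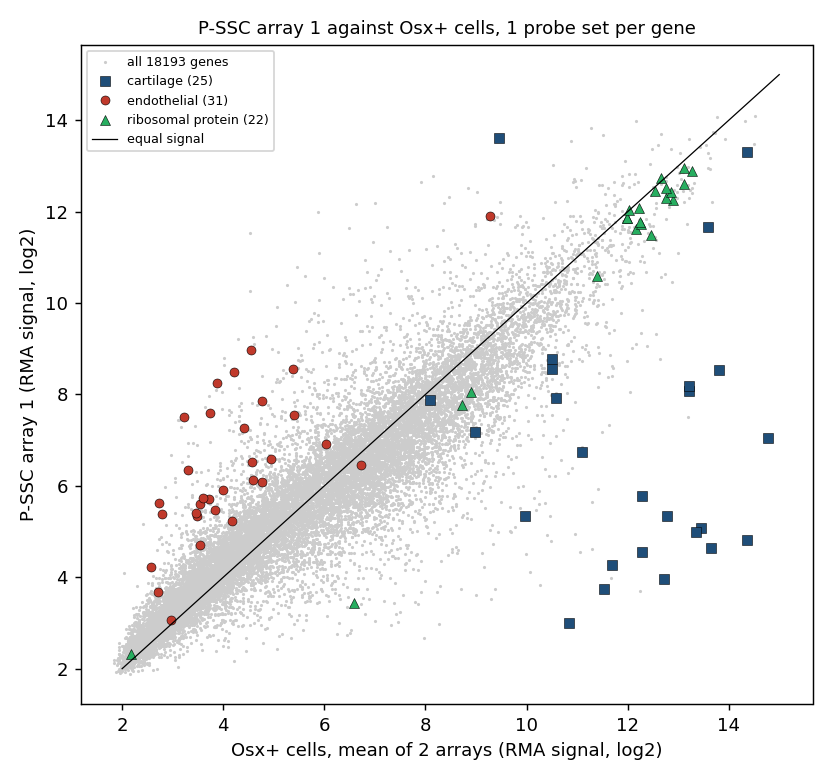
Signal of 18193 genes on P-SSC array 1 (y axis, log2) against the mean of the 2 Osx+ arrays (x axis, log2), 1 probe set per gene, with the line of equal signal. Of the cartilage genes (squares) 24 of 25 lie below the line, of the endothelial genes (circles) 30 of 31 above it, and the ribosomal protein genes (triangles) mostly near it.

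Both labels were first checked against the genes used to make or sort the cells. Sp7, the gene behind the Osx reporter, read 6.42 and 6.81 on P-SSC arrays 1 and 2 and 8.93 and 8.58 on the Osx+ arrays. The groups did not overlap, but the difference of -2.14 (SE 0.42) did not pass (limma adjusted p = 0.0857 with all arrays, 0.0981 with array 1 alone). In the CD45+ cells and the CD51+ marrow cells of the study the same probe set had means of 4.18 and 5.15, but it read 8.15 and 7.11 on the BM-SSC arrays and 7.71 on the array of Nes+ marrow cells, above both P-SSC arrays. Pdgfra, the CD140a of the P-SSC sort, read 11.28 on P-SSC array 1 and 4.41 on array 2, with 8.53 and 8.65 on the Osx+ arrays. P-SSC array 1 was thus above and array 2 below both Osx+ arrays, and neither fit passed (adjusted p = 0.797 and 0.628). Eng, the CD105 of the sort, read 8.32 and 7.59 against 6.97 and 7.08, higher on both P-SSC arrays without passing (adjusted p = 0.27 and 0.15). The probe set of Mx1 itself, whose promoter drives Cre, read 4.09 and 5.70 against 3.57 and 3.49 (adjusted p = 0.271 and 0.758). Ptprc (CD45), sorted against in both populations, read 5.43 and 4.60 in P-SSCs and 2.42 and 5.07 in Osx+ cells, while the CD45+ blood cells of the study had a mean of 12.05. Osteocalcin (Bglap), used to exclude mature osteoblasts, was not analysed here.

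Cartilage genes made the largest difference. Of 25 measured, 14 fell in P-SSCs with all arrays (background 1.02%) and 13 with P-SSC array 1 alone (background 1.01%), and none passed as higher in either fit. Their median difference was -6.76 log2 units with all arrays and -5.26 with array 1 alone, beside 0.15 and 0.05 over all genes. In 24 of the 25, both P-SSC arrays lay below both Osx+ arrays, where 28.5% of all genes did so, and on array 1 alone 24 lay below them, where 38.5% of all genes did. On both arrays 19 of 22 ribosomal protein genes and 20 of 22 collagen folding and secretion genes also lay below. Their median differences with array 1 alone were smaller, at -0.45 and -0.89. The summed linear signal of the list was 28803 on P-SSC array 1 and 1280 on array 2, against 189315 and 194355 on the Osx+ arrays. Fewer cells of a type and less RNA per cell cannot be told apart in such bulk samples. The label of the Osx+ cells names osteolineage precursors and no chondrocytes, and the list had medians of 12.2 and 12.4 on their 2 arrays, against 6.75 and 5.18 in P-SSCs. The call count of the list rests on both Osx+ arrays, since 6 of the 25 passed without Osx+ array 1 and 6 without Osx+ array 2.

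Structural collagens of cartilage were among the largest falls. Col9a1, a chain of the type IX collagen on the fibril surface, read 4.82 and 6.33 on P-SSC arrays 1 and 2 and 14.30 and 14.43 on the Osx+ arrays. Col2a1, the main fibrillar collagen of cartilage, read 7.06 and 4.99 against 14.81 and 14.75. Both genes separated the groups by far more than the spread within either one. Col9a1 fell by 8.79 (SE 0.64, adjusted p = 0.00209) with all arrays and by 9.55 (SE 0.62, adjusted p = 0.00341) with array 1 alone. Col2a1 fell by 8.76 (adjusted p = 0.00465) and by 7.73 (adjusted p = 0.00878). Col10a1, the collagen of hypertrophic chondrocytes, read 4.55 and 5.31 against 12.24 and 12.31, and fell by 7.34 and 7.72 in the same fits (adjusted p = 0.00161 and 0.00402). The other type IX chains Col9a2 and Col9a3 differed by -7.78 and -8.36 with array 1 alone, and Col11a2, of the type XI collagen at the fibril core, fell with all arrays (-6.68, adjusted p = 0.0389) but stood at an adjusted p of 0.0572 with array 1 alone.

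Proteins bound to that matrix, and its signalling receptors, were low as well. Cnmd, chondromodulin, a cartilage membrane protein that restrains vessel growth, read 4.65 and 4.87 in P-SSCs and 13.65 and 13.63 in Osx+ cells. Matn3, a matrilin that links collagen fibrils and proteoglycans, read 3.97 and 4.66 against 12.61 and 12.81. In each of these genes the 2 P-SSC arrays lay within 1 log2 unit of each other. With array 1 alone they fell by 8.99 and by 8.74 (adjusted p = 0.00449 and 0.00332). Acan, aggrecan, the large proteoglycan that holds water in cartilage, read 8.19 and 6.30 against 13.24 and 13.21 and fell by 5.04 (adjusted p = 0.0219). Fgfr3, the receptor that slows chondrocyte division, read 6.75 and 4.95 against 11.19 and 11.01 and fell by 4.35 (adjusted p = 0.0211). Snorc, Matn1, Epyc and Mia, further products of chondrocytes, fell with array 1 alone by 8.37, 7.83, 6.51 and 7.42. Panx3, a channel protein of prehypertrophic chondrocytes and osteoblasts, was not on the list and fell by 8.54 (adjusted p = 0.00757).

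Not every cartilage gene followed. Sox9, the master transcription factor of chondrocytes, read 7.93 and 3.70 on the P-SSC arrays and 10.66 and 10.50 on the Osx+ arrays, a difference of -2.65 (SE 1.06, adjusted p = 0.454) with array 1 alone. Its partner Sox5 read 7.88 and 5.93 against 8.17 and 8.03, and differed by -0.22, or by 0.094 under quantile normalization. Comp, a matrix protein shared by cartilage and tendon, read 13.30 and 4.24 against 14.36 and 14.38 and differed by -1.07 (adjusted p = 0.692). Array 1 of the P-SSCs was close to the Osx+ arrays in Sox5 and Comp, and array 2 was low. Prg4, lubricin, made by the surface cells of joints and by tendon sheath, was the 1 gene of the list above the Osx+ arrays on P-SSC array 1. It read 13.62 there and 2.97 on array 2, against 9.73 and 9.18, a difference of 4.16 with array 1 alone that did not pass (adjusted p = 0.0778).

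**Figure D2:**
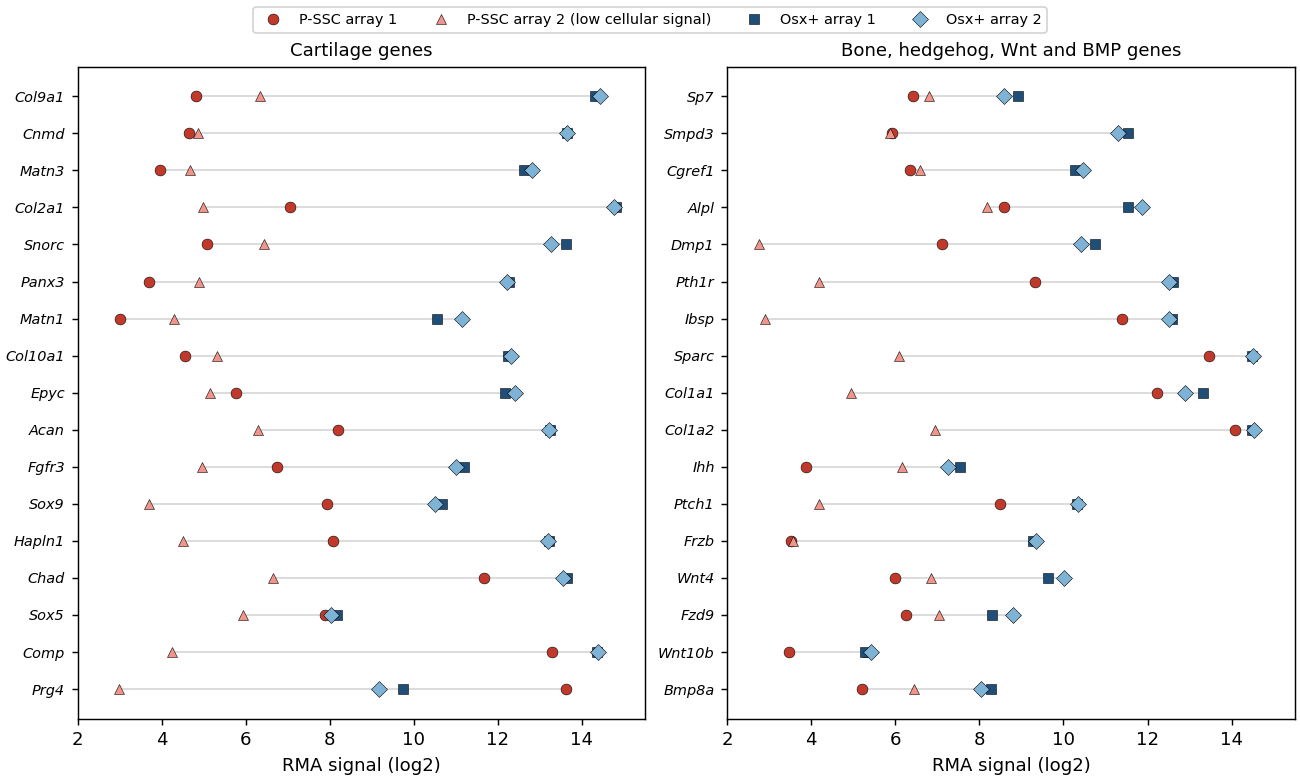
Signal (x axis, log2) of cartilage genes (left) and of bone, hedgehog, Wnt and BMP genes (right) on each of the 4 arrays, with a grey line from the lowest to the highest array. Col9a1 to Epyc sit at most at 7.06 on both P-SSC arrays and at 10.54 or more on both Osx+ arrays, while Comp, Sparc and Col1a2 are low on P-SSC array 2 and near the Osx+ arrays on P-SSC array 1.

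Osteoblast and osteocyte genes were less uniform. Of 20 measured, 3 fell with all arrays and none passed with array 1 alone by limma, and 13 and 9 were lower at an unadjusted p under 0.05, beside 12.7% and 7.09% of all genes. None passed without Osx+ array 1 or Osx+ array 2. The medians were -3.61 and -1.20. Leaving out array 2 of both P-SSCs and BM-SSCs, 14 of the 20 fell, where 17.7% of all genes did. The 3 that fell with all arrays were Alpl, Smpd3 and Cgref1. Alpl, the phosphatase that frees phosphate for mineral, read 8.58 and 8.19 on the P-SSC arrays and 11.53 and 11.88 on the Osx+ arrays, a fall of 3.32 (SE 0.46, adjusted p = 0.0261 with all arrays, 0.0597 with array 1 alone). Smpd3, a sphingomyelinase needed for bone and cartilage mineral, read 5.93 and 5.86 against 11.54 and 11.30 (-5.53, adjusted p = 0.0197 and 0.0522). Its other 2 probe sets passed with array 1 alone as well (-5.29 and -5.33, adjusted p = 0.00374 and 0.0139). In both genes the P-SSC arrays lay close together and under the Osx+ arrays. Cgref1, a secreted growth regulator, read 6.36 and 6.59 against 10.27 and 10.48 (-3.90, adjusted p = 0.0489 and 0.0991).

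The main bone matrix transcripts differed by less on P-SSC array 1 than the cartilage genes did by median (-5.26). Col1a1, the main collagen of bone, read 12.21 there and 4.93 on array 2, against 13.33 and 12.90, a difference of -0.90 (SE 0.44, adjusted p = 0.597) with array 1 alone. Col1a2, its partner chain, read 14.08 and 6.93 against 14.49 and 14.54, a difference of -0.43 that changes sign under quantile normalization (0.27). Sparc, osteonectin, read 13.47 and 6.08 against 14.48 and 14.50 (-1.02, adjusted p = 0.436). In all 3 the gap between the P-SSC arrays was several times that between array 1 and the Osx+ arrays. Ibsp, bone sialoprotein, read 11.38 and 2.90 against 12.59 and 12.52 (-1.17 with array 1 alone), and did not pass with all arrays. Another probe set of Col1a1, Col1a2, Sparc and Ibsp was also lower with array 1 alone, by -1.33, -0.86, -1.16 and -1.06. A further one of Col1a2 differed by -1.19 and one of Sparc by 0.53. Dmp1, a matrix protein of osteocytes, read 7.10 and 2.75 against 10.75 and 10.42, a larger difference of -3.49 with array 1 alone (adjusted p = 0.0788), and another of its probe sets fell with all arrays (-5.34, adjusted p = 0.0498). Of 22 genes for collagen folding and secretion none passed in the limma fit with all arrays (10 were lower at an unadjusted p, beside 12.7% of all genes). The medians were -3.12 with all arrays and -0.89 with array 1 alone.

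Hedgehog, BMP and Wnt components of the growth plate were then described. Ihh, Indian hedgehog, the signal of prehypertrophic chondrocytes, read 3.87 and 6.16 on the P-SSC arrays and 7.54 and 7.26 on the Osx+ arrays. It fell by 3.53 (SE 0.31, adjusted p = 0.00798) with array 1 alone and stood at an adjusted p of 0.19 with all arrays. Ptch1, the hedgehog receptor and a target of the pathway, differed by -1.85 with array 1 alone (adjusted p = 0.855). Pth1r, the receptor for PTH and PTHrP, read 9.32 and 4.18 against 12.62 and 12.50 (-3.23, adjusted p = 0.121). None of the 9 genes in the hedgehog and PTHrP list passed with all arrays (4 were lower at an unadjusted p, beside 12.7% of all genes).

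Among 25 Wnt genes 2 fell with all arrays, Frzb and Wnt4, beside 1.02% of all genes. Frzb, a secreted Wnt antagonist of cartilage, read 3.51 and 3.55 against 9.27 and 9.34. It fell by 5.77 with all arrays (SE 0.73, limma adjusted p = 0.0177) and differed by -5.79 with array 1 alone. Wnt4, a ligand of prehypertrophic cartilage and joints, read 5.98 and 6.84 against 9.64 and 10.01. It fell by 3.41 with all arrays (SE 0.38, limma adjusted p = 0.011) and differed by -3.84 with array 1 alone. Both genes were low on each P-SSC array. On P-SSC array 1, 9 of the 25 lay above both Osx+ arrays and 10 below, where 45.1% and 38.5% of all genes did. With array 1 alone the receptor Fzd9 and the ligand Wnt10b were lower by 2.29 and by 1.88, and the antagonist Sfrp4 was higher by 3.49. Sfrp4 read 10.96 on P-SSC array 1 and 7.26 on array 2, against 7.19 and 7.76, so that array 2 lay within the Osx+ range.

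Of 24 BMP genes none passed with all arrays (2 were higher and 4 lower at an unadjusted p, beside 7.64% and 12.7% of all genes). On P-SSC array 1, 13 of the 24 lay above both Osx+ arrays and 10 below, where 45.1% and 38.5% of all genes did. With array 1 alone Grem1 was higher while Bmp8a and Chrdl1 were lower. Grem1, the BMP antagonist that marks a class of skeletal stem cells, read 9.03 and 4.86 on the P-SSC arrays and 5.98 and 5.58 on the Osx+ arrays, a rise of 3.25 (SE 0.52, adjusted p = 0.048). Bmp8a, a BMP ligand, read 5.21 and 6.43 against 8.28 and 8.04, a fall of 2.95 (adjusted p = 0.0341), and the antagonist Chrdl1 fell by 1.77 (adjusted p = 0.0457). Another probe set of Chrdl1 differed in the opposite direction, by 0.23 with array 1 alone, and the remaining ones were lower (-0.38 and -0.65). Bmp4, a ligand that drives bone formation, read 8.56 and 5.43 against 5.82 and 5.74, a difference of 2.78 that did not pass (adjusted p = 0.104).

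Endothelial genes were higher in P-SSCs although the sort removed CD31+ cells. Of 31 measured, 2 rose with all arrays (background 0.055%), Kdr and Sox18, and 10 rose with P-SSC array 1 alone (background 0.44%). None passed as lower. The median difference was 1.59 with all arrays and 2.00 with array 1 alone. On P-SSC array 1, 30 of the 31 lay above both Osx+ arrays, as 45.1% of all genes did, and on both P-SSC arrays 24 did, against 32.8% of all genes. The median of the list was 4.97 on P-SSC array 2, beside 4.94 over all probe sets there, and 6.12 on array 1, beside 4.59. On the Osx+ arrays it was 4.04 and 3.86, beside 4.48 and 4.49. The summed linear signal of the list was 7480 on P-SSC array 1, 1418 on array 2, and 1213 and 1369 on the Osx+ arrays. Leaving out array 2 of both P-SSCs and BM-SSCs, 29 of the 31 passed as higher, beside 13.1% of all genes. Several of the members, Kdr, Flt1, Ptprb, Gpihbp1, Sema3g, Selp and Sox18, are also genes that the study picked as high in these libraries, so their direction is not independent evidence.

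Kdr, the VEGF receptor, read 8.55 and 7.36 on P-SSC arrays 1 and 2 and 5.55 and 5.21 on the Osx+ arrays. Both P-SSC arrays lay above both Osx+ arrays. The rise was 2.57 (SE 0.43, adjusted p = 0.0498) with all arrays, at the edge of the threshold, and 3.17 (SE 0.31, adjusted p = 0.012) with array 1 alone. The 2 calls with all arrays, of Kdr and Sox18, ended under median centring, array weights or the replicate block and without either Osx+ array, and the adjusted p of Kdr ran from 0.000105 to 0.511 over the alternatives. In the other populations the probe set of Kdr read 5.84 on average in CD45+ cells and 6.01 in CD51+ marrow cells. It read 7.72 and 7.58 on the BM-SSC arrays, both between the 2 P-SSC arrays, and 6.16 on the array of Nes+ marrow cells. Sox18, a transcription factor of vessel development, read 5.60 and 5.32 against 3.52 and 3.56, a rise of 1.92 with all arrays (SE 0.30, adjusted p = 0.038).

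Receptors and adhesion proteins of endothelium rose with array 1 alone. Flt1, the VEGF receptor that also acts as a decoy, read 8.50 and 6.62 on the P-SSC arrays and 4.68 and 3.75 on the Osx+ arrays, a rise of 4.28 (adjusted p = 0.0198, and 0.0847 with all arrays). Another probe set of Flt1 read 6.92 and 6.69 against 4.44 and 4.32 and passed in both fits (2.42 with all arrays, adjusted p = 0.0238). Ptprb, the phosphatase that restrains endothelial Tek, read 8.97 and 4.90 against 4.67 and 4.42 and rose by 4.43 (adjusted p = 0.0169). Array 2 was above the Osx+ arrays in both genes, in this probe set of Ptprb by less than 1 log2 unit. Cdh5, the cadherin of endothelial junctions, read 7.60 and 4.64 against 4.14 and 3.34, so array 2 lay under its median over all probe sets (4.94). It rose by 3.86 with array 1 alone and did not pass with all arrays (limma adjusted p = 0.261). With array 1 alone Tek, the angiopoietin receptor, rose by 2.58, and Cldn5, a claudin of endothelial tight junctions, by 2.87. Neither passed with all arrays. Pecam1, the CD31 that the sort selected against, read 6.34 and 4.80 against 3.23 and 3.39, a rise of 3.03 (adjusted p = 0.0298, and 0.143 with all arrays). The number of endothelial cells in the sorted samples was not tested. Gpihbp1, which carries lipoprotein lipase across capillaries, rose by 3.09 (adjusted p = 0.0367) and the semaphorin Sema3g by 1.92 (adjusted p = 0.0411).

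Exceptions in the list were Erg and Sele. Erg, an endothelial ETS factor, read 6.46 and 5.21 on the P-SSC arrays and 6.43 and 7.02 on the Osx+ arrays, and another of its probe sets differed the other way. Sele, a selectin of inflamed endothelium, read 3.06 and 4.97 against 2.90 and 3.03. Both were near the Osx+ level on P-SSC array 1. Of 12 ligands and coreceptors of the VEGF and angiopoietin families none passed with all arrays. On P-SSC array 1, 9 of them lay above both Osx+ arrays, as 45.1% of all genes did. Vegfc, the ligand of lymphatic growth, read 8.87 and 4.94 against 5.21 and 5.86 and differed by 3.34 with array 1 alone. Vegfd, its close relative, differed by 4.09 (adjusted p = 0.106), and another of its probe sets, at 6.78 and 4.80 against 2.85 and 2.65, passed (4.04, adjusted p = 0.049). Vegfa, the main ligand of Kdr, read 7.15 and 4.65 against 9.70 and 9.38, a difference of -2.39 with array 1 alone (adjusted p = 0.306).

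**Figure D3:**
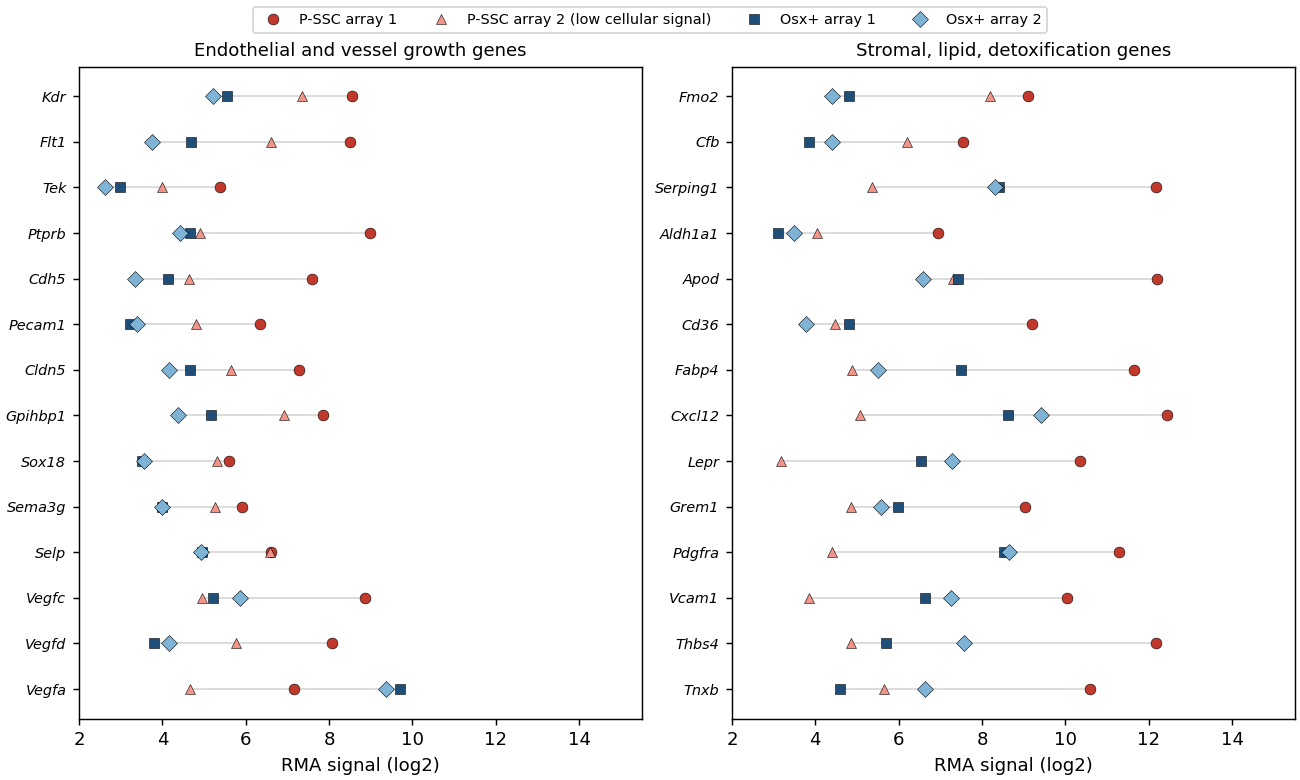
Signal (x axis, log2) of endothelial and vessel growth genes (left) and of stromal, lipid and detoxification genes (right) on each of the 4 arrays, with a grey line from the lowest to the highest array. Kdr, Flt1, Sox18 and Fmo2 are above the Osx+ arrays on both P-SSC arrays, whereas the probe sets drawn for Cxcl12, Lepr and Pdgfra are above them on P-SSC array 1 and below them on P-SSC array 2. Each of these 3 genes has another probe set that is above the Osx+ arrays on P-SSC array 2, and also a further one below them. For Cxcl12 the one above is dim, at 3.61 and 4.55 on the P-SSC arrays, under the median of array 2 (4.94). The further one of Cxcl12 reads 12.49 and 5.35 against 8.39 and 9.28.

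Skeletal stem cell and niche genes were above the Osx+ arrays on P-SSC array 1 in 17 of 21 measured, as were 45.1% of all genes. There 2 passed as higher (Cxcl12 and Grem1), beside 0.44% of all genes, and none passed with all arrays (4 were higher and 1 lower at an unadjusted p, beside 7.64% and 12.7%). The medians were 1.74 with array 1 alone and -0.41 with all arrays, so the direction turns with P-SSC array 2. Cxcl12, the chemokine that retains blood stem cells in the marrow, read 12.43 on array 1 and 5.06 on array 2, with 8.63 and 9.42 on the Osx+ arrays, a rise of 3.41 with array 1 alone (SE 0.52, adjusted p = 0.0412). Lepr, the leptin receptor of marrow stroma, read 10.34 and 3.18 against 6.55 and 7.28 (3.43, adjusted p = 0.0557). Vcam1, an adhesion molecule of the niche, read 10.03 and 3.85 against 6.62 and 7.25 (3.10, adjusted p = 0.0799). In these probe sets all 3 genes were highest on P-SSC array 1 and lowest on array 2. Another probe set of Lepr, at 9.84 and 3.62 against 4.50 and 6.29, shared this order. So did another of Cxcl12, at 12.49 and 5.35 against 8.39 and 9.28. The remaining probe sets of the 3 genes did not. Another of Lepr read 7.51 and 6.46 against 4.98 and 5.17 and passed with array 1 alone (2.44, adjusted p = 0.0266), and another of Vcam1 read 8.46 and 5.79 against 5.09 and 5.65 and also passed (3.09, adjusted p = 0.0447). Nt5e (CD73), an ectoenzyme of stromal cells, was lower on both P-SSC arrays, at 9.49 and 4.51 against 11.67 and 11.48. It differed by -2.09 with array 1 alone, without passing. Another of its probe sets was also lower, at 6.64 and 7.04 against 7.82 and 8.10. A dim one, at 3.40 and 3.37 against 3.38 and 3.38, differed by 0.015 with array 1 alone.

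Periosteal and fibroblast genes had the same split between arrays. Of 30 measured, 22 were above both Osx+ arrays on P-SSC array 1, as were 45.1% of all genes, and 0 were on both P-SSC arrays, as were 32.8%. None passed with all arrays (0 were higher at an unadjusted p, and 20 passed as higher without array 2 of P-SSCs and BM-SSCs, beside 13.1% of all genes), and 1 passed with array 1 alone (14 were higher at an unadjusted p, beside 4.94%). That gene was Fbln5, which helps assemble elastic fibres, at 10.21 and 6.70 against 6.33 and 6.79, a rise of 3.65 (SE 0.43, adjusted p = 0.0198). Thbs4, a thrombospondin of tendon, read 12.16 and 4.86 against 5.70 and 7.56 (5.54, SE 1.48, adjusted p = 0.208), and Tnxb, a tenascin of connective tissue, 10.60 and 5.64 against 4.60 and 6.63 (4.99, adjusted p = 0.125). In both genes the Osx+ arrays differed from each other by more than 1 log2 unit, Osx+ array 2 being the higher. Postn, periostin, and Col3a1, the collagen of fibrous tissue, were alike on P-SSC array 1 and the Osx+ arrays, at 12.68 against 12.63 and 12.88 and at 14.08 against 13.86 and 13.69.

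Fmo2 had the largest rise of any gene that passed with all arrays. This flavin monooxygenase, which oxidises drugs and sulphur compounds, read 9.12 and 8.18 on the P-SSC arrays and 4.82 and 4.40 on the Osx+ arrays. Fmo2 rose by 4.04 with all arrays (SE 0.46, limma adjusted p = 0.0112) and by 4.50 with array 1 alone. It is also among the genes the study picked as high in these libraries, so its direction is not independent evidence. In the other populations it had means of 4.32 in CD45+ cells and 8.95 in CD51+ marrow cells. On the BM-SSC arrays it read 7.45 and 7.26, and 7.26 on the array of Nes+ marrow cells. Of 13 genes for detoxification and retinal oxidation 1 passed with all arrays, Fmo2, where 0.055% of all genes were called higher. On P-SSC array 1, 12 of the 13 lay above both Osx+ arrays, as 45.1% of all genes did. Aldh1a1 and Aldh1a2, which make retinoic acid, were higher by 3.64 and 3.42 with array 1 alone. Aldh1a1 read 6.94 and 4.04 against 3.10 and 3.50. The third retinal dehydrogenase, Aldh1a3, went the other way, at 6.07 and 3.78 against 7.96 and 7.78 (-1.80, adjusted p = 0.614), with another probe set in the opposite direction.

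Complement genes were above both Osx+ arrays on P-SSC array 1 in all 8 measured, as were 45.1% of all genes, and 3 rose there, beside 0.44%. Serping1, the C1 inhibitor, read 12.18 and 5.35 on the P-SSC arrays and 8.41 and 8.31 on the Osx+ arrays, a rise of 3.82 (adjusted p = 0.00682). Cfb, factor B of the alternative pathway, read 7.55 and 6.19 against 3.84 and 4.41 and rose by 3.43 (adjusted p = 0.0161, and 0.0625 with all arrays). C2, its counterpart in the classical pathway, read 7.48 and 5.31 against 5.17 and 5.10. It rose by 2.34 with array 1 alone and did not pass with all arrays (limma adjusted p = 0.288). Cfb was above the Osx+ arrays on both P-SSC arrays and Serping1 on array 1 only. Cfb is also among the genes the study picked.

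Lipid carriers were among the largest rises on P-SSC array 1. Apod, a lipocalin that binds lipids, read 12.19 and 7.31 against 7.43 and 6.59, a rise of 5.18 (SE 0.56, adjusted p = 0.015). Fabp4, the fatty acid binding protein of fat cells and capillaries, read 11.65 and 4.89 against 7.49 and 5.50 (5.15, adjusted p = 0.0379), and Cd36, a fatty acid transporter, 9.21 and 4.48 against 4.81 and 3.78 (4.91, adjusted p = 0.0165). P-SSC array 2 was within 1 log2 unit of an Osx+ array in each of these probe sets. In other probe sets it was above both Osx+ arrays, at 7.21 against 4.74 and 3.88 for Apod and at 4.60 against 2.55 and 2.71 for Fabp4. That value of Fabp4 lay under the median of all probe sets on array 2 (4.94). A further probe set of Fabp4 was above that median and both Osx+ arrays, at 5.42 on array 2 against 3.97 and 3.80. The remaining one read 5.49 on array 2, between the Osx+ arrays (6.38 and 4.96). Of 9 adipocyte and lipid uptake genes none passed with all arrays. On P-SSC array 1, 8 of them lay above both Osx+ arrays, as 45.1% of all genes did. Adipoq, adiponectin, read 10.75 and 4.17 against 6.56 and 7.69, a difference of 3.62 with array 1 alone. With array 1 alone Cavin2, a coat protein of caveolae, rose by 4.79 (SE 0.32). In the same fit Nox4, an oxidase that makes hydrogen peroxide, rose by 4.62, and Clu, the extracellular chaperone clusterin, by 4.63. Cavin2 read 8.79 and 4.75 against 3.93 and 4.08, and Nox4 8.64 and 5.47 against 4.55 and 3.49. Neither of these 2 passed with all arrays (limma adjusted p = 0.271 and 0.231). Clu read 12.77 and 7.46 on the P-SSC arrays against 7.95 and 8.33, so array 2 lay below both Osx+ arrays. Its other probe sets also put array 2 below them. Of 16 matrix proteases and inhibitors none passed with all arrays. On P-SSC array 1, 12 of them lay above both Osx+ arrays, as 45.1% of all genes did. Timp4, a metalloprotease inhibitor, read 7.31 and 4.56 against 3.41 and 3.49, a difference of 3.86 with array 1 alone. Its relative Timp1 differed by -2.90 in that fit.

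The remaining rises with all arrays reached at most 7.32 on any P-SSC array. C1qtnf9, a secreted relative of adiponectin, read 5.76 and 5.15 against 3.18 and 2.93 (2.40, adjusted p = 0.04), and Reln, the glycoprotein reelin, 5.37 and 5.25 against 3.31 and 3.63 (1.84, adjusted p = 0.045). Ankrd33b, Naalad2, Trim30d, Trim34a and Mmp8 rose by 2.73, 2.48, 1.94, 1.92 and 2.66. In the CD45+ cells of the study Ankrd33b, Trim30d, Trim34a and Mmp8 had means of 7.53, 8.57, 9.26 and 11.12, above both P-SSC arrays. Naalad2, C1qtnf9 and Reln had means of 3.66, 3.38 and 4.82 there, below both. All 7 genes were above the Osx+ arrays on both P-SSC arrays. Trim30d, at 4.72 on P-SSC array 2, was below the median of all probe sets on that array (4.94).

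Blood cell transcripts were then described, few of which passed. Mmp8, the neutrophil collagenase, read 5.50 and 6.54 in P-SSCs and 3.09 and 3.62 in Osx+ cells (limma adjusted p = 0.0471 with all arrays). It was the 1 gene of 14 granulocyte markers that passed with all arrays, where 0.055% of all genes were called higher. S100a8, an abundant neutrophil protein, read 12.33 and 11.94 against 6.81 and 10.14, and S100a9, its partner, 12.65 and 10.42 against 6.16 and 9.68. Both were lowest on Osx+ array 1, and Osx+ array 2 was closer to the P-SSC arrays. Neither passed (adjusted p = 0.152 and 0.219 with all arrays). The summed linear signal of the granulocyte list was 19771 and 6465 on the P-SSC arrays and 480 and 4117 on the Osx+ arrays. Of the 14 granulocyte genes 6 were higher at an unadjusted p with all arrays, beside 7.64% of all genes. On P-SSC array 1, 12 lay above both Osx+ arrays, as 45.1% of all genes did. None of 18 markers of all blood cells passed in the limma fit with all arrays (7 were higher at an unadjusted p), and 16 lay above both Osx+ arrays on P-SSC array 1. Their summed signals were 1892 and 1056 on the P-SSC arrays and 483 and 899 on the Osx+ arrays. Of 7 red cell genes none passed with all arrays. On P-SSC array 1, 5 of them lay above both Osx+ arrays, as 45.1% of all genes did. Alas2, of haem synthesis, read 7.53 and 4.75 against 3.97 and 4.65, a difference of 3.21 with array 1 alone. Slc4a1, the band 3 anion exchanger, read 10.27 and 5.15 against 3.67 and 5.38. Another of its probe sets read 8.76 and 5.93 against 4.53 and 5.53, a difference of 3.73 with array 1 alone. None of 14 monocyte and macrophage genes passed, and 1 was higher at an unadjusted p in each fit. The part of these transcripts in the differences above was not tested.

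Other lists held few calls. None of 17 interferon response genes passed in either limma fit (6 and 8 were higher at an unadjusted p, beside 7.64% and 4.94% of all genes). On P-SSC array 1, 16 of them lay above both Osx+ arrays, as 45.1% of all genes did, and 12 passed as higher without array 2 of P-SSCs and BM-SSCs, beside 13.1%. Their medians were 0.96 with all arrays and 1.36 with array 1 alone, beside 0.15 and 0.05 over all genes. The part of pIpC given to the P-SSC mice was not tested. None of 23 cell cycle genes, 15 immediate early genes or 14 pericyte and smooth muscle genes passed in either fit. At an unadjusted p with array 1 alone, where 4.94% of all genes were higher and 7.09% lower, 2 cell cycle genes were higher and 2 lower, 2 immediate early genes higher and 0 lower, and 3 pericyte and smooth muscle genes higher and 1 lower. With all arrays, where the shares were 7.64% and 12.7%, these counts were 1 and 4, 0 and 1, and 1 and 1. Of 15 skeletal muscle genes 1 fell with all arrays, beside 1.02% of all genes. This was Tnni2, a troponin also made by chondrocytes. It read 4.23 and 4.83 against 9.04 and 9.27, a difference of -4.62 (limma adjusted p = 0.00594), and of -4.92 with array 1 alone. Of its other probe sets 1 was also lower (-2.54 with array 1 alone) and a dim one differed by 0.06. None of 11 housekeeping genes passed (0 were higher and 2 lower at an unadjusted p with all arrays, beside 7.64% and 12.7% of all genes). Of 22 ribosomal protein genes 1 fell with all arrays, Rpl14, beside 1.02% of all genes.

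**Figure D4:**
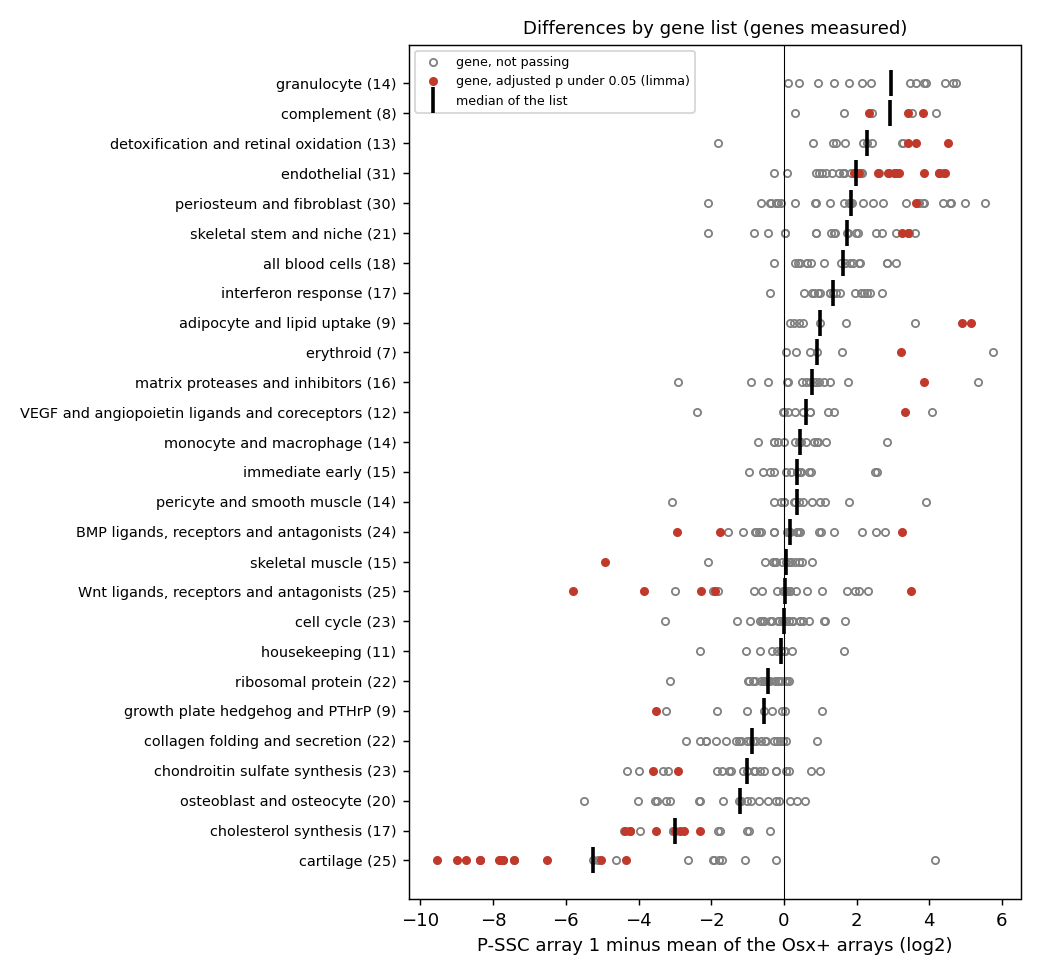
Difference between P-SSC array 1 and the mean of the Osx+ arrays (x axis, log2) for each measured gene of the cell type and pathway lists (y axis, number of genes in brackets; the sort genes and the 15 genes the study names are not drawn), with filled points for genes that passed with array 1 alone and a bar at the median of the list. Of the lists drawn, cartilage and cholesterol synthesis lie furthest to the left, with medians of -5.26 and -3.002, and granulocyte and complement genes furthest to the right, with 2.94 and 2.93.

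The promoters of a gene lost and a gene gained are shown to set the comparison beside its DNA, as the 250 bases before the annotated start in RefSeq, build GRCm38.p6, read 5′ to 3′ on the strand of the gene. Capitals mark GGCGGG or its complement, the core letters of a GC box, searched on both strands, where neighbouring matches may share bases. Matn3 lies on the plus strand at chr12:8947679-8947928 and Kdr on the minus strand at chr5:75978456-75978705.
Matn3: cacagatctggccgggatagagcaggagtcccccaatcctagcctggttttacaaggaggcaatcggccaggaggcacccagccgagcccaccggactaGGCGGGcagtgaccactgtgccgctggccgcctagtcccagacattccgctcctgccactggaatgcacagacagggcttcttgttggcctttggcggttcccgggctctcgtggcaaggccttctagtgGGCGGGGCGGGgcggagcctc
Kdr: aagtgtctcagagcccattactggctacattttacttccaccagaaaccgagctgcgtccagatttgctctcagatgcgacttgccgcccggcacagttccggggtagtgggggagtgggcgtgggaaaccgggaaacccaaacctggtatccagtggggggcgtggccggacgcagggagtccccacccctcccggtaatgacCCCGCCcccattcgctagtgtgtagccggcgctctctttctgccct
The Matn3 window holds 3 matches and the Kdr window 1, and 32.5% of all 32841 promoter windows hold at least 1. Of 26 windows of 18 cartilage genes 38.5% hold it, and of 21 windows of 17 endothelial genes 42.9%. The letters ACAAT, the core recognised by SOX proteins, occur in neither window shown, in 26.9% of the cartilage windows, in 19% of the endothelial windows and in 27.7% of all windows. These are descriptions of letters in a short window.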

How the data were processed

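RNA of sorted mouse cells was labelled and hybridised to Affymetrix mouse 430 arrays. The deposited log2 values are the authors' RMA output, that is background-corrected, quantile-normalized and summarised per probe set by median polish, and were used as they stand. The 64 Affymetrix control probe sets were left out, and 45037 were tested with no filter on signal. Genes were named from the platform annotation, which gives 34958 probe sets 1 symbol, 932 several, and names none for 9160 tested. Each of 18193 genes is read from its probe set of highest average signal. One model with a mean for each population took all 11 arrays, in limma 3.58.1 in R 4.3.3 (5 residual degrees of freedom, 4 without P-SSC array 2), P-SSC minus Osx, with Benjamini-Hochberg adjustment over all probe sets. The fit was tested on simulated data. The number of arrays limits the precision.

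The members and gene lists were chosen with earlier results of these data known. Genes are named by rule: the markers Kdr and Sp7, sort and reporter genes, genes the study names, up to 15 a direction with the largest difference in either fit among those that passed without overlap, and up to 6 a list with the largest difference on array 1. Of these the text names a part, and outside the rule it names Acan, Fgfr3, Sox9, Sox5, Comp, Prg4, Col1a1, Col1a2, Sparc, Ibsp, Wnt10b, Tek, Cldn5, Erg, Sele, Nt5e, Fbln5, Postn, Col3a1, Aldh1a3 and the sterol genes, chosen after their values were seen. Alternatives were an unadjusted p, a 2-fold minimum, only the groups compared, leaving out arrays, leaving out dimmer probe sets, quantile normalization, median centring, a variance trend, array weights, a replicate block and 1 probe set per gene.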

Additional observations from a re-analysis of the deposited data

How the results depend on the processing

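Counts of calls moved with nearly every alternative. More probe sets were lower than higher in P-SSCs wherever any passed, except without P-SSC array 1. With all P-SSC arrays, 364 probe sets passed (21 higher, 343 lower), with 14 cartilage, 3 osteoblast and 2 endothelial genes. Leaving out 1 array gave 18 to 21888 in all, 0 to 13308 higher, 17 to 8580 lower, 6 to 25 cartilage, 0 to 13 osteoblast, 0 to 14 endothelial and 0 to 1 periosteum and fibroblast genes. The largest counts came without P-SSC array 1 and the smallest without an Osx+ array. An unadjusted p gave 8147 (3709 higher, 4438 lower), with 23 cartilage, 13 osteoblast and 20 endothelial genes. Only the P-SSC and Osx arrays gave 0 for each count. Leaving out array 2 of P-SSCs and BM-SSCs gave 11744 (5422 higher, 6322 lower), with 23, 14 and 29 genes in the 3 lists and 20 periosteum and fibroblast genes. Without the dimmer probe sets 6 were higher and 0 endothelial genes passed. Quantile normalization gave 221 (197 lower) and 1 osteoblast gene, median centring 13 higher and 0 endothelial genes, a variance trend 1 osteoblast and 1 endothelial gene, and array weights 66 (0 higher, 66 lower) with 0 osteoblast and 0 endothelial genes. With 1 probe set per gene 193 passed (9 higher, 184 lower).

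With P-SSC array 1 alone, 487 passed. The count was 14 to 22 without an Osx+ array, 0 with only the groups compared, 4636 at an unadjusted p, 11744 without BM-SSC array 2, 308 without the dimmer probe sets, 10126 with array weights and 287 with 1 probe set per gene.

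Replicate numbers are shared between populations, and with array number as a block 264 probe sets passed with all arrays (6 higher, 0 endothelial genes) and 99 with array 1 alone. The arrays of a number deviated together in P-SSCs and BM-SSCs (correlation 0.784) and not in P-SSCs and Osx+ cells (-0.183), and no label names a shared batch, so the numbers were not taken as pairs.

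Of 103 genes named, 37 passed with all arrays, and 31 of these lost their call without Osx+ array 1 and 31 without Osx+ array 2. With array 1 alone 57 passed, of which 51 lost it without either Osx+ array. Signs turned in 5 of the named genes, under quantile normalization Col1a2 (0.27), Postn (0.18), Sele (-0.0865) and Sox5 (0.094), under median centring Sele (-0.0104), and without Osx+ array 2 Erg (0.030, with -0.55 without Osx+ array 1) and Postn (0.046, with -0.20 without Osx+ array 1). Of 56 named genes with several probe sets, 10 had one of opposite direction on array 1. The causes were not tested.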

Other observations

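Cholesterol synthesis genes were lower in P-SSCs. The pathway was picked after its genes had been seen among the calls, so its counts are a description. Of 17 measured enzymes 7 fell with all arrays, beside 1.02% of all genes, and none passed as higher. All 17 lay below both Osx+ arrays on both P-SSC arrays, as 28.5% of all genes did. The medians of the list were -3.15 and -3.002. Sqle, squalene epoxidase, read 5.52 and 5.39 on P-SSC arrays 1 and 2 and 9.76 and 9.99 on the Osx+ arrays, a fall of 4.42 (SE 0.54, limma adjusted p = 0.0158). Idi1, which isomerises the isoprene unit, read 6.94 and 5.53 against 10.40 and 10.51 and fell by 4.22 (adjusted p = 0.0105). Msmo1 and Cyp51, which demethylate sterols, fell by 5.26 and by 4.92 (adjusted p = 0.0268 and 0.038). Fdft1, squalene synthase, fell by 5.31 (adjusted p = 0.0301). Another of its probe sets, at 4.91 and 5.36 against 9.01 and 9.51, differed by -4.12 with all arrays (limma adjusted p = 0.00858). The remaining ones went the opposite way, by 0.19 and 0.86 with all arrays, and did not pass (adjusted p = 0.782 and 0.338). In each of these 5 genes both P-SSC arrays were low, and BM-SSC array 1 read between 6.51 and 7.68. Another list, also picked after the calls were seen, held 23 enzymes and transporters for chondroitin sulfate, the sugar chain of aggrecan. Of these 3 fell with all arrays, beside 1.02% of all genes. The medians were -2.13 with all arrays and -1.02 with array 1 alone.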
